A study of Mus musculus with 16 samples.

Results

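This account covers the 9 genes Col4a1, Col4a2, Col6a1, Col6a2, Col6a3, Col7a1, Col8a1, Col15a1 and Col18a1, which encode collagens of basement membranes, of anchoring fibrils and of beaded filaments. They were taken by platform gene symbol from 17097 genes on the array, with the brightest of a gene's probe sets, by its mean over the 16 arrays, standing for the gene, and all 9 were among the 14819 genes tested. The samples were fibroblasts of the dermis, which make its matrix, from female C57Bl/6 mice, an inbred laboratory strain with no allele or treatment named in the labels. Young mice were 2 months old and old mice 18 months old. Cells were profiled either directly after isolation, called in vivo as in the labels, or after culture, which gave 4 groups of 4 arrays: in vivo and cultured cells of young mice, and in vivo and cultured cells of old mice. Each sample was RNA of 5000 cells, amplified over 23 cycles and hybridised to an Affymetrix mouse array. The sources used here give neither the way the fibroblasts were isolated nor their time in culture.

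Collagens are trimers of polypeptide chains. Type IV chains join into the flat network that underlies basement membranes, and the chains encoded by Col4a1 and Col4a2 form its most widespread trimer. Type VI collagen combines the chains of Col6a1, Col6a2 and Col6a3 into tetramers that align as beaded filaments between the basement membrane and the interstitial matrix, and dermal fibroblasts are one of its main sources. Type VII collagen, a homotrimer, forms the anchoring fibrils that fasten the epidermal basement membrane to the dermis, and its loss causes blistering skin. Type VIII is a short-chain, network-forming collagen known from vessel walls and Descemet's membrane. Types XV and XVIII, the multiplexins, carry glycosaminoglycan chains at the border of basement membrane and stroma, and the C-terminal fragment of type XVIII is endostatin, an inhibitor of vessel growth.

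The genes Col4a1 and Col4a2 lie close together, as do Col6a1 and Col6a2, while their partner Col6a3 is on another chromosome. The promoters of these 2 pairs are shown because their values are compared array by array below. In the RefSeq annotation of GRCm38.p6, Col4a1 (chr8:11198423-11312889, minus strand) and Col4a2 (chr8:11312805-11449287, plus strand) run head to head and overlap by 85 bases. Col6a1 (chr10:76708792-76726044) and Col6a2 (chr10:76595756-76623630), both on the minus strand, are separated by 85161 bases. The other members are Col6a3 (chr1:90766860-90844001), Col7a1 (chr9:108953586-108984875), Col8a1 (chr16:57624256-57754737), Col15a1 (chr4:47207655-47313167) and Col18a1 (chr10:77052178-77166530). RefSeq promoter windows, which run from 250 bases before to 50 bases after an annotated start, matched all 9 genes, with 11 windows in all. The first line below is the stretch shared by both type IV promoters (chr8:11312777-11312854, plus strand, 73.1% G and C), with the bases from the Col4a2 start at 11312805 to the Col4a1 start at 11312826 in capitals. This Col4a1 start lies inside the gene span given above, which ends at 11312889. The lines after it are 100 bases of the Col6a1 promoter (chr10:76726025-76726124) and of the Col6a2 promoter (chr10:76623465-76623564), both on the minus strand, with the motif CCCTCCCC in capitals. The Col6a2 stretch is from the window of its start at 76623404 and lies inside the gene span, whose outer annotated start is at 76623630.
Col4a1 and Col4a2, shared start region: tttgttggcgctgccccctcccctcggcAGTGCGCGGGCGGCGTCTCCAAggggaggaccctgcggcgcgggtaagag
Col6a1: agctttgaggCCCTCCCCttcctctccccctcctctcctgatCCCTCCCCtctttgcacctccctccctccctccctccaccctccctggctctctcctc
Col6a2: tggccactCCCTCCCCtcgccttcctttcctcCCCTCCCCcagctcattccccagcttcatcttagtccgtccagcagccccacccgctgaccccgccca

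Searched on both strands, CCCTCCCC occurred in 6 of the 11 member windows, belonging to 5 members (Col4a1, Col4a2, Col6a1, Col6a2 and Col8a1), and in 10.8% of all 32851 windows of the same length. The windows of Col4a1 and Col4a2 overlap, and their match is 1 and the same site in the shared stretch, so they are not separate occurrences. GGGCGG occurred in 7 member windows, with 1 match again shared by Col4a1 and Col4a2, and in 35.7% of all windows, and none of its matches in members overlapped one of CCCTCCCC. CCAAT was found in 4 member windows and 37.4% of all windows, TATAAA in 0 member windows and 13.6% of all, and TGACTCA in the Col6a1 window and 5.2% of all. The median share of G and C was 59.7% over the member windows, with a range of 52.3 to 74.0%, and 52.7% over all windows. A match describes letters only, and no binding was measured here.

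The values are deposited log2 intensities, with array medians of 4.74 to 4.92. The 12 poly-A control probe sets, which match no mouse gene, had a 95th percentile of 4.34 and serve here as a mark of background. Arrays correlated at 0.977 to 0.992 within the in vivo condition, at 0.987 to 0.996 within the cultured condition and at 0.879 to 0.913 between them. All 9 fibroblast markers had group means above 4.34 in all 4 groups, and their mean level was 10.8 to 10.9 (young) and 10.7 to 10.9 (old) in vivo, and 9.1 to 9.47 (young) and 9.13 to 9.36 (old) in culture. In bulk samples, fewer cells of a type and less RNA per cell cannot be told apart. There were 4 mice of each age, and each gave 1 in vivo and 1 cultured sample, per the series' design text. The labels do not tie the samples of 1 mouse together, so the fits across conditions treat arrays as independent although conditions share mice.

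**Figure D1:**
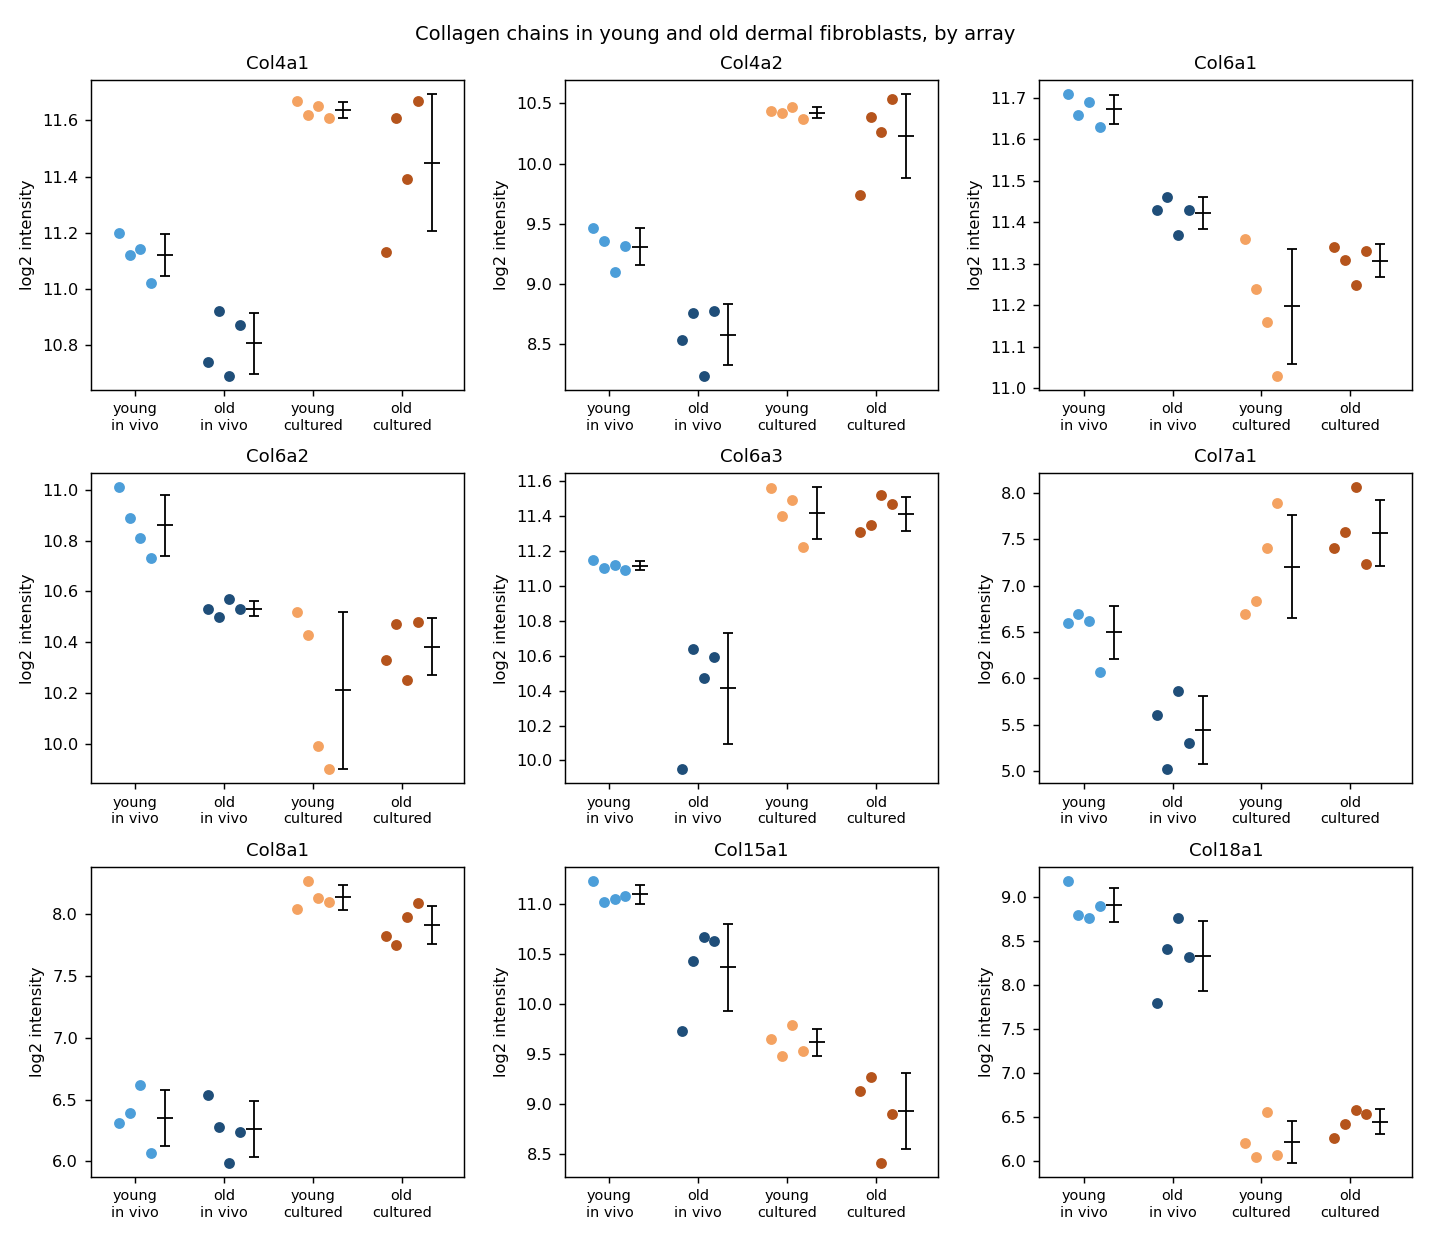
Log2 intensity of the 9 collagen genes (vertical axes) in the 4 groups (horizontal axes); each point is 1 array, and the bars give the mean and SD of 4 arrays. Col18a1 lies at 8.91 in young in vivo and at 6.22 in young cultured arrays, while Col4a2 lies at 9.31 and 10.43 in the same groups.

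The first question was how placing the cells in culture altered the mRNA of these collagens. Averaged over both ages, 5 members rose in culture: the type IV chains Col4a1 and Col4a2, the type VI chain Col6a3, Col7a1 and Col8a1. The other 4 fell: the type VI chains Col6a1 and Col6a2 and the multiplexins Col15a1 and Col18a1. Among all genes tested with limma (Benjamini-Hochberg adjusted p under 0.05), 34.8% were higher and 44.7% lower in culture, so that a call was common and the members' counts are not far from that background. The median change of the members was 0.58 (log2), against -0.11 over all genes tested. Scaling the arrays to equal 75th percentiles moved the median of all genes to -0.31 and the share of calls that were higher from 43.7% to 32.5%. The members' split of 5 higher and 4 lower was the same in that scaling and under cyclic loess.

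**Figure D2:**
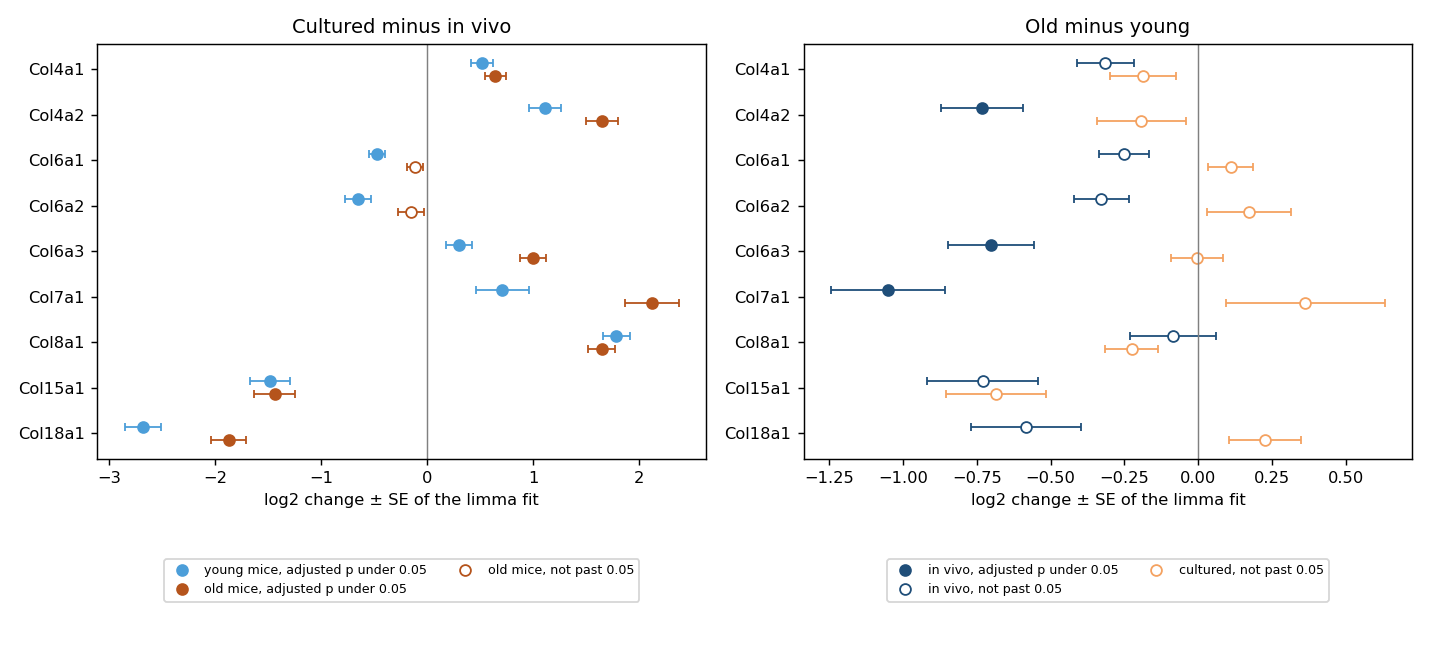
Log2 change of each collagen gene (points, with SE) with culture in young and in old mice, and with age in vivo and in culture. Col18a1 and Col15a1 lie below 0 and Col8a1, Col4a2 and Col7a1 above 0 for culture at both ages, and all 9 genes lie at or below 0 for age in vivo.

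Col4a2 encodes the chain that pairs with type IV alpha-1 in the main basement membrane trimer. It measured 9.47, 9.36, 9.10 and 9.32 (log2 intensity) on the young in vivo arrays and 8.54, 8.76, 8.24 and 8.78 on the old ones. After culture it measured 10.44, 10.42, 10.47 and 10.37 in young and 9.74, 10.39, 10.26 and 10.54 in old cells. Every cultured array lay above every in vivo array, and the groups of different age overlapped only in culture. The rise was 1.11 ± 0.15 (SE, log2; 2.16-fold, limma adjusted p = 5.75e-06) in young and 1.65 ± 0.15 (3.14-fold, 6.35e-08) in old cells.

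Col4a1 encodes the chain of which that trimer holds a pair. In vivo the young arrays spanned 11.02 to 11.20 and the old ones 10.69 to 10.92, and in culture the young arrays spanned 11.61 to 11.67 and the old ones 11.13 to 11.67. The old cultured arrays thus reached down into the young in vivo range. The rise with culture was 0.52 ± 0.10 (limma adjusted p = 0.000307) in young and 0.65 ± 0.10 (3.98e-05) in old cells. Its other probe set had group means of 10.32 (young) and 9.95 (old) in vivo and of 10.78 (young) and 10.51 (old) in culture. The rise in young cells was 0.19 (adjusted p = 0.144) under cyclic loess.

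Col6a3 encodes the longest of the type VI chains, whose C-terminal end is released as endotrophin. It measured 11.15, 11.10, 11.12 and 11.09 in young in vivo and 9.95, 10.64, 10.47 and 10.59 in old in vivo arrays. In culture it measured 11.56, 11.40, 11.49 and 11.22 in young and 11.31, 11.35, 11.52 and 11.47 in old arrays. The cultured groups overlapped each other and lay above both in vivo groups. The rise was 2-fold (log2 SE 0.12, limma adjusted p = 2.65e-06) in old cells, and in young cells it was 0.30 ± 0.12 (0.0391). The value in young cells was 0.07 (adjusted p = 0.646) after scaling to the 75th percentile and -0.03 (0.819) under cyclic loess, and the call was lost without any 1 of the young arrays other than young cultured replicate 4 (adjusted p up to 0.107).

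Col6a2 encodes a type VI chain that assembles with those of Col6a1 and Col6a3. It measured 11.01, 10.89, 10.81 and 10.73 in young in vivo and 10.53, 10.50, 10.57 and 10.53 in old in vivo arrays. After culture the young arrays measured 10.52, 10.43, 9.99 and 9.90 and the old ones 10.33, 10.47, 10.25 and 10.48. All 8 cultured arrays lay below the young in vivo arrays, and the old in vivo arrays lay above all but the highest of the young cultured ones. Col6a2 fell by 0.65 ± 0.12 (limma adjusted p = 0.000174) with culture in young cells, while the value in old cells was -0.15 ± 0.12 (0.287).

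Col6a1 encodes the remaining chain of the trimer. In vivo it ranged from 11.63 to 11.71 (young) and 11.37 to 11.46 (old), and in culture from 11.03 to 11.36 (young) and 11.25 to 11.34 (old). It fell by 0.48 ± 0.07 (limma adjusted p = 2.99e-05) with culture in young cells, and the value in old cells was -0.12 ± 0.07 (0.186). After scaling to the 75th percentile the old cells passed the test for both genes, with -0.27 (adjusted p = 0.00759) for Col6a1 and -0.31 (0.025) for Col6a2. The other probe set of Col6a2 gave 0.06 in old cells (adjusted p = 0.717), and its group means were 10.78 (young) and 10.33 (old) in vivo and 10.21 (young) and 10.39 (old) in culture.

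Col7a1, the gene of the anchoring fibril collagen, measured 6.60, 6.69, 6.62 and 6.07 in young in vivo and 5.60, 5.02, 5.86 and 5.30 in old in vivo arrays. In culture the young arrays measured 6.69, 6.83, 7.41 and 7.89 and the old ones 7.40, 7.58, 8.06 and 7.23. The old in vivo arrays stood below the other 12, and the cultured groups overlapped each other. Culture raised Col7a1 by 2.12 ± 0.25 (4.35-fold, limma adjusted p = 1.42e-06) in old and by 0.71 ± 0.25 (1.64-fold, 0.0186) in young cells. The call in young cells was lost without young in vivo replicate 4 (adjusted p = 0.0667), without young cultured replicate 4 (0.0782), after scaling to the 75th percentile (0.47, 0.0924) and under cyclic loess (0.54, 0.0829).

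Col8a1 encodes a chain of short-chain type VIII collagen. On its brightest probe set it measured 6.31, 6.39, 6.62 and 6.07 in young in vivo and 6.54, 6.28, 5.99 and 6.24 in old in vivo arrays. The young cultured arrays measured 8.04, 8.27, 8.13 and 8.10 and the old cultured arrays 7.82, 7.75, 7.98 and 8.09. The ages overlapped in both conditions, and every cultured array exceeded every in vivo array. The rise was 1.79 ± 0.13 (3.45-fold, limma adjusted p = 2.2e-09) in young and 1.65 ± 0.13 (3.13-fold, 7.11e-09) in old cells.

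The size of the Col8a1 rise depended on the probe set. A further probe set had in vivo means of 4.11 ± 0.34 (SD over 4 arrays) for young and 3.90 ± 0.20 for old mice, and cultured means of 9.07 ± 0.10 and 8.61 ± 0.15. The last one had in vivo means of 3.79 ± 0.08 and 3.79 ± 0.35 and cultured means of 8.20 ± 0.18 and 7.71 ± 0.22. In a fit to all 24235 probe sets that passed the filter, the former rose 31.1-fold in young and 26.3-fold in old cells, and the latter 21.3-fold and 15.2-fold. Both lay below the control mark of 4.34 in vivo, where intensities hold mostly background, so these folds understate the change.

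**Figure D3:**
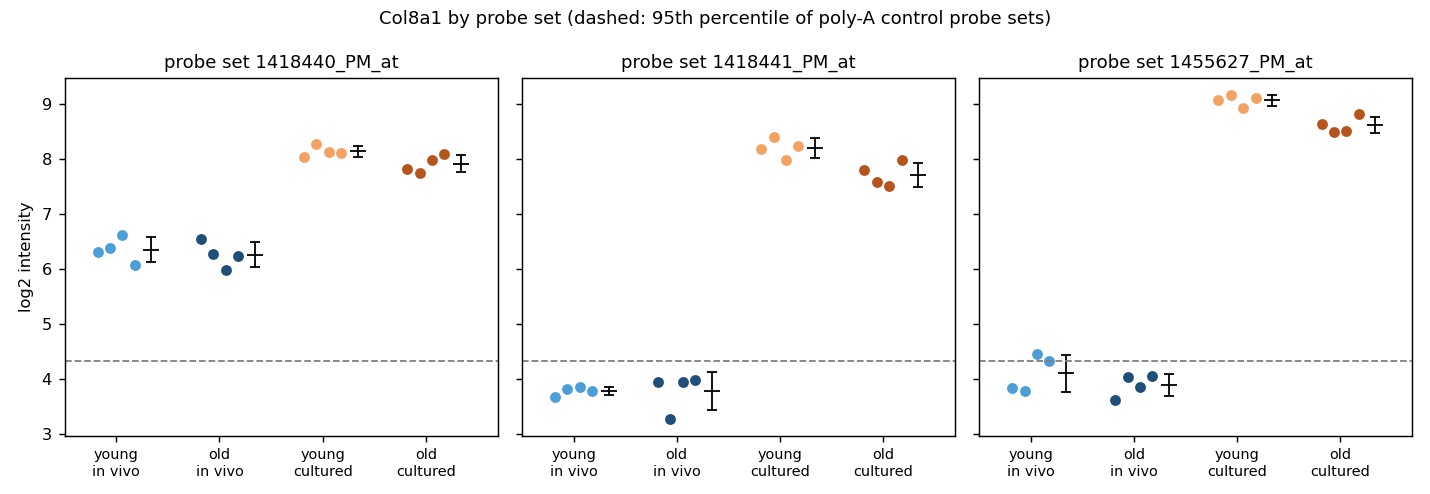
Log2 intensity (vertical axis) of the 3 Col8a1 probe sets, 1 panel each, in the 4 groups; points are arrays, bars are the mean and SD of 4 arrays, and the dashed line is the 95th percentile of the poly-A control probe sets, 4.34. All 3 probe sets are higher in culture, and 2 of them have in vivo means below the dashed line.

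Col15a1 encodes a multiplexin found in the outermost zone of basement membranes. It measured 11.23, 11.02, 11.05 and 11.08 in young in vivo and 9.73, 10.43, 10.67 and 10.63 in old in vivo arrays. Cultured young arrays measured 9.65, 9.48, 9.79 and 9.53 and cultured old arrays 9.13, 9.27, 8.41 and 8.90. From high to low, the groups stood in the order young and old in vivo, then young and old in culture, and only the middle groups overlapped, through 1 old in vivo array. Col15a1 fell by 1.48 ± 0.19 (limma adjusted p = 3.28e-06) with culture in young and by 1.44 ± 0.19 (5.42e-06) in old cells.

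Col18a1 encodes the multiplexin that gives rise to endostatin. It measured 9.18, 8.79, 8.76 and 8.89 in young in vivo and 7.80, 8.41, 8.76 and 8.32 in old in vivo arrays. In culture it measured 6.21, 6.05, 6.56 and 6.07 in young and 6.26, 6.42, 6.58 and 6.54 in old arrays. The conditions were far apart and the ages overlapped within each. Col18a1 fell by 2.68 ± 0.17 on the log2 scale (6.42-fold lower, limma adjusted p = 5.26e-10) in young and fell by 1.87 ± 0.17 (3.66-fold lower, 5.22e-08) in old cells. A further probe set of Col18a1 also read lower, by -2.02 in young and -1.68 in old cells.

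Counted within each age, culture raised 5 and lowered 4 members in young cells, against 32.6% higher and 38.6% lower among all genes. In old cells it raised 5 and lowered 2 (Col15a1 and Col18a1), with Col6a1 and Col6a2 not past the test, against 30.2% higher and 32.5% lower. After scaling to the 75th percentile, 3 members were higher in young cells and 4 were lower in old cells, and the share of calls that were higher went from 45.8% to 31.4% (young) and from 48.1% to 34.2% (old). Under cyclic loess, 2 members were higher in young cells. Endothelial markers had a summed linear level of 359 to 433 (young) and 398 to 742 (old) in vivo, and of 212 to 252 (young) and 204 to 262 (old) in culture, and 6 of the 10 were lower and 0 higher in culture. Pericyte and smooth muscle markers (7 of 9 on the array) summed to 864 to 911, 1007 to 1200, 1254 to 1547 and 1014 to 1345 in the same order. Schwann cell markers (5 of 8 on the array) summed to 2468 to 2620 and 2254 to 3145 in vivo, and to 645 to 866 and 564 to 1065 in culture. All 9 fibroblast markers were lower in culture (median -1.28). Of the 8 keratinocyte markers tested, 6 were lower and 0 higher in culture (median -0.421). Of the 7 macrophage markers tested, 6 were lower and 0 higher (median -0.5). The signal of the 3′ beta-actin control minus the 5′ one, a measure of RNA length, was -0.41 ± 0.07 and -0.46 ± 0.11 (SD, n = 4) in the young and old in vivo and 0.07 ± 0.04 and 0.10 ± 0.07 in the young and old cultured arrays. The part of these markers and of RNA length in the culture changes was not tested.

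The probe sets of some partner chains shifted by different amounts with culture. Within each array, log2 Col4a1 minus log2 Col4a2 was 1.81 ± 0.16 (SD, n = 4) in young in vivo and 1.21 ± 0.03 in young cultured arrays, a difference of -0.60. In old cells it went from 2.22 ± 0.16 to 1.22 ± 0.12, a difference of -1.01. Both gave the smallest two-sided p that an exact permutation test of 4 against 4 arrays allows, 0.0286, or 0.0429 after adjustment over the 6 tests of partner chains with culture, and none of the in vivo and cultured arrays overlapped. The Col4a2 probe set thus rose more than the Col4a1 probe set at both ages. Probe sets can differ in how strongly they respond to the same change, as the 3 of Col8a1 did, so an unequal shift does not by itself show that the mRNAs changed unequally. A level of a difference compares probe sets and has no meaning of its own, so that only its shifts between groups were read.

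Among the type VI chains, Col6a3 minus the mean of Col6a1 and Col6a2 rose from -0.15 ± 0.05 to 0.71 ± 0.16 in young cells and from -0.57 ± 0.32 to 0.57 ± 0.14 in old cells. These shifts of 0.86 and 1.13 each had an exact permutation p of 0.0286 and an adjusted value of 0.0429. Col6a1 minus Col6a2 shifted by 0.18 in young cells (exact permutation p = 0.229, adjusted 0.274) and by 0.04 in old cells (exact permutation p = 0.657), with overlapping groups. The Col6a3 probe set thus went up relative to those of its partners, while no unequal shift of Col6a1 and Col6a2 was detectable with 4 arrays a group.

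**Figure D4:**
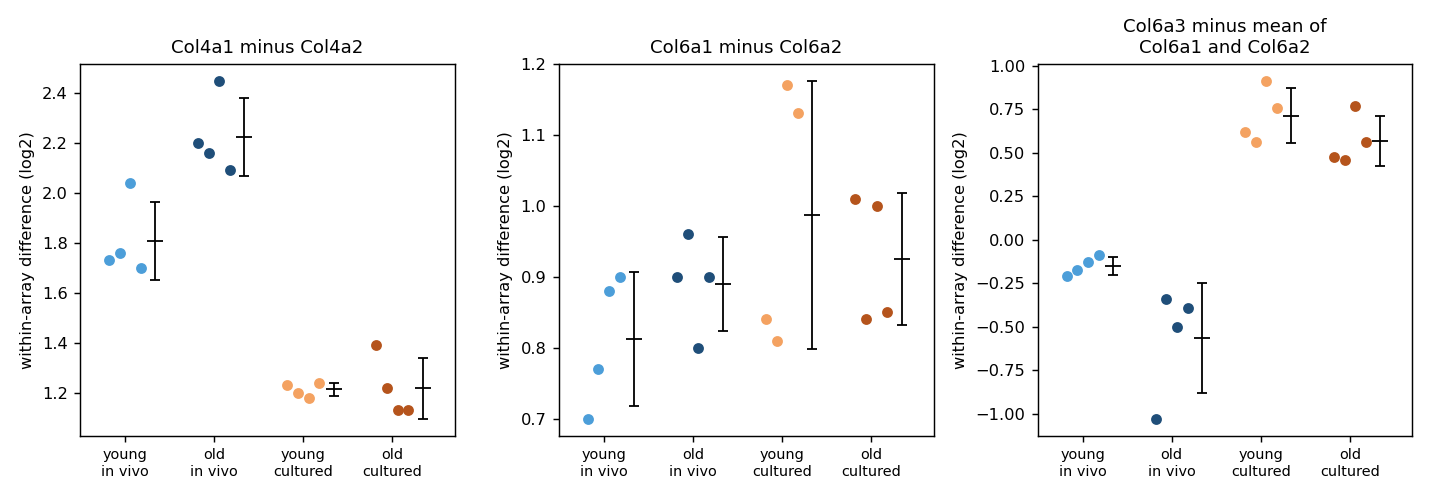
Within-array differences of log2 intensity between partner chains (vertical axis) in the 4 groups; points are arrays and bars the mean and SD of 4 arrays. Col4a1 minus Col4a2 falls from 1.81 and 2.22 in vivo to 1.21 and 1.22 in culture, and Col6a3 minus the mean of Col6a1 and Col6a2 is higher in culture by 0.86 in young and 1.13 in old cells.

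The question of age was asked first in the cells profiled directly after isolation. Col4a2, Col6a3 and Col7a1 were lower in old than in young cells, and 0 members were higher. Col4a2 fell by 0.73 ± 0.14 (1.66-fold lower, limma adjusted p = 0.0359), Col6a3 by 0.70 ± 0.15 (1.63-fold lower, 0.0478) and Col7a1 by 1.05 ± 0.19 (2.07-fold lower, 0.0315). In the fit to all 24235 probe sets Col6a3 did not pass (limma adjusted p = 0.0522), while Col4a2 (0.0377) and Col7a1 (0.034) did. Among all genes tested, 0.911% were higher and 0.439% lower in old cells. In 7 of the 9 members every old array lay below every young array, as it did in 2.73% of all genes, the exceptions being Col8a1 and Col18a1. The median difference of the members was -0.58, against 0.02 over all genes.

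The other 6 members did not pass the test in vivo. Their differences, old minus young, were -0.32 ± 0.10 for Col4a1 (limma adjusted p = 0.146), -0.25 ± 0.08 for Col6a1 (0.184), -0.33 ± 0.09 for Col6a2 (0.127), -0.73 ± 0.19 for Col15a1 (0.0917), -0.58 ± 0.19 for Col18a1 (0.158) and -0.09 ± 0.15 for Col8a1 (0.832). The other probe set of Col18a1 gave -0.335 (limma adjusted p = 0.404). Col15a1 had the same mean difference as Col4a2 but a wider spread among old mice, with an SD of 0.44 over the 4 old arrays. It passed once arrays had equal 75th percentiles (-0.80, adjusted p = 0.049) and under cyclic loess (-0.82, 0.036). Of the genes called with age in vivo, 67.5% were higher in old cells as deposited, 43.9% after that scaling and 51.1% under cyclic loess, and all 9 members kept a negative difference under each.

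These calls rested on few arrays. The number of members called lower was 0 without young in vivo replicate 1, 2 or 3 or old in vivo replicate 2, 1 without young in vivo replicate 4 or old in vivo replicate 3 or 4, and 4 without old in vivo replicate 1, where Col15a1 joined (-0.52, limma adjusted p = 0.0452). Over these 8 fits the difference stayed between -0.80 and -0.62 for Col4a2, between -0.78 and -0.55 for Col6a3 and between -1.19 and -0.91 for Col7a1. Old in vivo replicate 1 was the lowest of its group for Col6a3, Col15a1 and Col18a1, and it had the highest level of the keratinocyte genes Krt5 (9.68, against 5.74 to 6.14 on the other old in vivo arrays) and Krt14 (7.11, against 4.78 to 4.92).

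Keratinocyte markers (9 of 10 on the array) summed to 404 to 521 in young and 460 to 1347 in old in vivo arrays. The sums of the pericyte and smooth muscle markers did not overlap between the ages, as given above. Of these 7 markers, Kcnj8 was higher in old cells (1.06, limma adjusted p = 0.0494). The other 6 did not pass, and the median difference of the 7 was -0.03, so the sums do not show a rise of the list as a whole. Of the 10 endothelial markers 0 passed with age in vivo (limma): Kdr gave 0.77 (adjusted p = 0.327), Tek 0.67 (0.45) and Flt1 0.42 (0.51), while Pecam1 lay at the control mark with 4.34 in young and 4.37 in old arrays. The differences of Cdh5, Emcn, Vwf, Cldn5 and Esam were negative, and the median difference of the 10 was 0. The macrophage marker Csf1r was lower in old cells (-1.08 ± 0.15, limma adjusted p = 0.00995), at 7.53 ± 0.23 (SD, n = 4) in young and 6.46 ± 0.23 in old in vivo arrays, the one call among the 7 macrophage markers tested. The macrophage list as a whole summed to 497 to 835 in young and 510 to 678 in old arrays, and adipocyte markers (3 of 6 on the array) to 60.3 to 83.8 and 64.0 to 90.9. The 3′ minus 5′ signal of Gapdh was -0.12 to -0.04 in young and -0.17 to -0.13 in old in vivo arrays. The part of these values in the age differences was not tested beyond the fits that left out an array.

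The same within-array differences were compared between the ages in vivo. Col4a1 minus Col4a2 was 0.42 higher and Col6a3 minus the mean of Col6a1 and Col6a2 was 0.41 lower (a difference of -0.41) in old than in young cells. Each had an exact permutation p of 0.0286, the smallest possible, and 0.0857 after adjustment over 6 tests, which misses 0.05. Col6a1 minus Col6a2 differed by 0.08 (exact permutation p = 0.229).

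In cultured cells no age difference passed the test. With limma, 0 of the 9 members and 0 of all genes passed the test (0% higher and 0% lower), also in a fit to all 16 arrays. At an unadjusted p under 0.05 there were 533 genes, 2 of them members. The differences, old minus young, were -0.19 ± 0.11 for Col4a1, -0.19 ± 0.15 for Col4a2, 0.11 ± 0.08 for Col6a1, 0.17 ± 0.14 for Col6a2, -0.01 ± 0.09 for Col6a3, 0.36 ± 0.27 for Col7a1, -0.23 ± 0.09 for Col8a1, -0.69 ± 0.17 for Col15a1 and 0.23 ± 0.12 for Col18a1. Each had a limma adjusted p of 0.997. On the brightest probe sets, Col15a1 was the one member with every old cultured array below every young one, which held for 0.864% of all genes. The other probe sets of Col8a1 gave -0.45 ± 0.09 and -0.48 ± 0.12 (limma adjusted p = 0.998 for each). On the former, every old cultured array (8.49 to 8.81) also lay below every young one (8.93 to 9.16). The sign of the Col6a3 value turned with the scaling (0.01 after scaling to the 75th percentile).

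Whether the age difference itself changed with culture was tested by the interaction, the difference in culture minus that in vivo. None of the 9 members passed (limma, 0 higher and 0 lower), and 6 did at an unadjusted p under 0.05, where 1823 genes of all tested did. Among all genes 0.196% passed as higher and 0.391% as lower. The values were 1.41 ± 0.35 for Col7a1 (adjusted p = 0.0869), 0.70 ± 0.18 for Col6a3 (0.0869), 0.81 ± 0.24 for Col18a1 (0.15), 0.36 ± 0.11 for Col6a1 (0.15), 0.50 ± 0.17 for Col6a2 (0.223) and 0.54 ± 0.21 for Col4a2 (0.287). For Col4a1, Col8a1 and Col15a1 the values were 0.13, -0.14 and 0.05. The other probe set of Col18a1 gave 0.335 (limma adjusted p = 0.666). Col6a3 passed under cyclic loess (0.78, adjusted p = 0.0319) and without old in vivo replicate 1 (0.54, 0.0428), and Col7a1 without young cultured replicate 4 (1.64, 0.0389). The share of interaction calls that were higher was 33.3% as deposited, 55.9% after scaling to the 75th percentile and 45.2% under cyclic loess. So the age differences of Col4a2, Col6a3 and Col7a1 passed the test in vivo and not in culture, but a change between conditions was not shown for any of them.

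Partner chains were also compared array by array around their group means, over the 8 arrays of a condition and with 8 relations in all. In culture, Col4a1 and Col4a2 had a Pearson r of 0.971 (exact permutation p = 0.00694, adjusted 0.0556) and a Spearman rho of 0.81 (exact p = 0.0243, adjusted 0.194). Without the 2 arrays farthest from the median of Col4a1 the r was 0.971. Col6a1 and Col6a2 had an r of 0.897 in culture (exact p = 0.0156, adjusted 0.0625), a rho of 0.905 (exact p = 0.0521, adjusted 0.208) and an r of 0.841 without the 2 farthest arrays. These relations missed 0.05 after adjustment, and under cyclic loess both Pearson values passed at an adjusted exact p of 0.0417.

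In vivo the same pairs gave an r of 0.713 for Col4a1 and Col4a2 (exact permutation p = 0.099, adjusted 0.264; rho 0.762, exact p = 0.104, adjusted 0.278) and 0.352 for Col6a1 and Col6a2 (exact p = 0.483, adjusted 0.644; rho 0). Without the 2 farthest arrays these were 0.497 and 0.457. For Col6a3, the r with Col6a1 was 0.579 in culture (exact p = 0.26, adjusted 0.521) and 0.123 in vivo (exact p = 0.753, adjusted 0.83). Its r with Col6a2 was 0.438 in culture (exact p = 0.441, adjusted 0.644) and 0.028 in vivo (exact p = 0.83). By rho the order differed in vivo, with 0.349 for Col6a3 with Col6a1 and 0.192 with Col6a2, against 0 for Col6a1 with Col6a2. In culture these rho were 0.286 and 0.405. Whether the correlations differ between pairs or conditions was not tested.

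**Figure D5:**
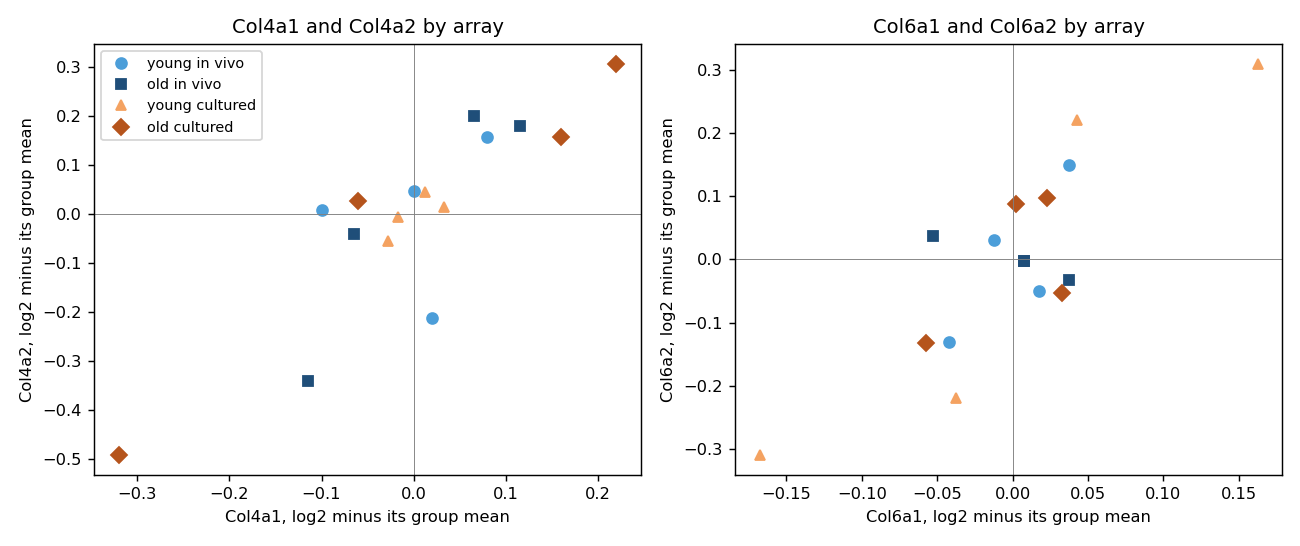
Log2 intensity of partner chains against each other, with each array's value centred on its group mean; points are arrays, coloured by group. In culture the points of Col4a1 and Col4a2 lie along a line (r = 0.971), and those of Col6a1 and Col6a2 less tightly so (r = 0.897).

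Across all 16 arrays, where the conditions form separate clusters and the values are a description only, the gene with the pattern most like Col4a1 was Col4a2 (Pearson r 0.977) and the reverse held too. Col6a1 and Col6a2 were likewise each other's nearest pattern (0.946). Col6a3 was nearest to Ckap4 (0.959), Ttc37 (0.958) and Cdr2l (0.953), and neither partner chain was among its 3 nearest genes. Nearest to Col18a1 were Wdr66, Col16a1 (both 0.988) and Kif26a (0.987), and nearest to Col8a1 were Shmt2 (0.987), Sipa1l2 and Uck2 (both 0.986). Col15a1 was nearest to Scamp5 (0.963), Creb3l1 (0.952) and Miat (0.945), and Col7a1 to Prkrip1 (0.932), Aldh1l2 and Ucn3 (both 0.908). After its partner, Col4a2 was nearest to Ehd4 (0.965) and Unc5b (0.963), Col6a1 to Sash1 (0.917) and Ager (0.916), and Col6a2 to Jmy (0.897) and Ramp2 (0.868).

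The counts of the lists that follow are descriptions, to be read against the shares over all genes, 34.8% higher and 44.7% lower with culture and 0.911% higher and 0.439% lower with age in vivo. Of 10 other non-fibrillar collagens, among them type IV chains and transmembrane collagens, 1 rose with culture, 6 fell and 3 did not pass (median -0.33, against -0.11 over all genes). Col4a5, which forms a type IV network with other partners, was the one that rose, by 2.84 ± 0.11, while Col4a4 (-1.42) and Col4a3 (-1.08) fell. Col4a3 measured 3.66 in young and 3.63 in old cultured cells, below the control mark of 4.34, and Col4a5 lay below it in old in vivo cells, so both changes are understated. Col4a5 also was lower in old than in young cells in vivo (-1.54 ± 0.16, limma adjusted p = 0.00109), with levels of 5.45 ± 0.33 and 3.91 ± 0.16 (SD, n = 4), and its interaction passed (1.43 ± 0.21, 0.00309). The fall with age is understated for the same reason. After culture Col4a5 measured 7.57 ± 0.22 in young and 7.46 ± 0.15 in old cells. Transmembrane collagens Col23a1 (-2.60) and Col13a1 (-0.78) were lower in culture.

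The laminins and nidogens that share the basement membrane with type IV collagen had 1 gene higher and 5 lower with culture among 9 tested. Their median was -0.43, against -0.11 over all genes. The share that was higher lay below the 34.8% of all genes, in a list of few genes. With age in vivo 0 of 9 passed. Lama2 fell (3.99-fold lower), as did Lamb2 (-1.63), Lamc3 (-1.22) and Lamc1 (-0.96 ± 0.07), while Nid1, which links laminin to type IV collagen, rose by 0.86 ± 0.09. Lamb1 changed by 0.13 (limma adjusted p = 0.111). Of 18 other basement membrane genes, 3 rose and 13 fell (median -0.39), with Npnt (5.99), Tinagl1 (4.05) and Fbln2 (3.17) as the higher ones and Smoc2 (-3.80) among the lower. Npnt lay below the control mark in both in vivo groups and Fbln2 in the young one, so their rises are understated. The perlecan gene Hspg2 gave -0.01 (adjusted p = 0.938). With age in vivo 2 of these 18 genes were higher in old cells, Agrn (0.74, limma adjusted p = 0.0473) and Ntn4 (0.70, 0.0401). Frem1 was lower (-1.07, 0.0129), and 15 did not pass. The interaction passed for Frem1 (1.07, limma adjusted p = 0.0133) and Ntn4 (-1.095, 0.0119).

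Genes that build and cross-link collagen moved in both directions: 8 rose and 8 fell among 21 (median -0.06). Plod2, a lysyl hydroxylase, rose by 3.36 ± 0.13, Plod3, which also glycosylates lysines of type IV and VI collagen, by 0.77 ± 0.08, and Pxdn, the peroxidasin that cross-links type IV collagen, by 0.31 ± 0.10 (limma adjusted p = 0.00721). Bmp1, a procollagen C-proteinase that also processes type VII collagen, fell by 1.37 ± 0.09, and the collagen chaperone Serpinh1 changed by -0.13 (0.147). With age in vivo 0 of the 21 passed, Pxdn giving -0.46 (0.219) and Serpinh1 -0.39 (0.224).

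Of 18 collagen and basement membrane receptors, 7 rose and 9 fell with culture (median -0.19), close to the shares over all genes. The integrin chains Itga6 (2.04, understated because it lay below the control mark in vivo), Itgb1 (0.89) and Itga1 (0.81 ± 0.13) rose, as did the collagen-binding kinase Ddr1 (1.66 ± 0.12), while Antxr1 (-1.67) and Antxr2 (-1.66), which bind type VI collagen, fell. Ddr1 was the one receptor that passed with age in vivo (0.56 ± 0.11, limma adjusted p = 0.0359). Extracellular partners of type VI collagen had 0 higher and 4 lower among 8 (median -0.50), with Tgfbi (-3.93), Mfap2 (-2.67), Dcn (-1.68) and Matn2 (-0.71). Matrix proteases and their inhibitors had 3 higher and 10 lower among 16 (median -0.74), with Timp1 at 3.59 and Mmp3 at -3.43.

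With age in vivo, the fibrillar collagens had 0 higher and 2 lower among 10 (Col5a2, -0.66, limma adjusted p = 0.0285, and Col1a2, -0.64, 0.0493; median -0.21), beside 0 higher and 3 lower among the 9 members. With culture the fibrillar genes had 2 higher and 5 lower (median -0.08). In cultured cells 0 genes of any of these lists passed with age. The members thus held both directions with culture and only negative differences with age in vivo. The same held for the 10 fibrillar genes, whose differences with age in vivo ran from -0.85 (Col5a3) to -0.01 (Col27a1). Whether the members differ from the fibrillar genes was not tested.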

How the data were processed

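The values deposited by the authors are log2 intensities of 45141 probe sets. The submitters' processing notes name RMA and affy without a version. No source used here gives the base of the logarithm, which was inferred from how far the values reach. Whether all arrays were normalised together is also not stated. The deposited arrays did not share one distribution, as their medians ran from 4.74 to 4.92. Scaling to equal 75th percentiles moved the median culture change of all genes, averaged over both ages, from -0.11 to -0.31. Changes thus depend on the scaling and are relative to the other genes. RMA also shrinks differences of dim genes. Of the probe sets, 28898 had 1 gene symbol and 104 were controls; genes above 3.87, the 25th percentile, in at least 4 arrays were tested. No 2 arrays were identical (0 pairs).

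Group means were fitted with limma 3.58.1 (R 4.3.3, lmFit and eBayes, two-sided, Benjamini-Hochberg over 14819 genes), checked on simulated data. Culture and the interaction used all 16 arrays. Age used the 8 arrays of 1 condition, because the median residual SD was 0.185 in vivo and 0.129 in culture. Partner differences used exact permutation (70 labelings) and correlations all 576 reorderings within age groups. Alternatives were scaling to the 75th percentile, cyclic loess, other filters, mean or other probe sets, other variance models, array weights, a shared fit and leaving out each array. The number of arrays limits the precision. Named genes are all members, some called genes of the lists, genes with a stated role for a member, and the 3 genes most like each member. The called genes named are not in every list those with the largest change. Among the receptors Gpc1, which rose by 2.36 in young and 2.72 in old cells, was left out above. Members and lists were chosen with earlier results of these data known.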

Additional observations from a re-analysis of the deposited data

Results flagged for a closer look

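Col7a1 in young in vivo cells had 1 array away from the others: replicate 4 measured 6.07 (log2), and the other 3 arrays 6.60, 6.69 and 6.62. The gap of 0.53 was 0.855 of the range of the group, above Dixon's 95% critical value for 4 samples. With 36 groups of 4 arrays looked at, chance marks about 1 in 20. Without that array the difference with culture in young cells did not pass the test, as given in the report.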

How the results depend on the processing

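Of the values compared, 530 under another setting and 990 with 1 array left out kept their direction and their side of the threshold. After scaling to the 75th percentile, 3 members were higher with culture in young and 4 lower in old cells; under cyclic loess these were 2 and 4, and 1 member passed the interaction as higher. Fitting age to all 16 arrays called 900 genes in vivo, against 200. Signs turned for Col6a3 with culture in young cells (-0.0331, cyclic loess) and with age in culture (0.005 after 75th percentile scaling, 0.0015 under cyclic loess), for Col6a2 in old cells (0.0575, its other probe set), for Col8a1 with age in vivo (0.0025, its dimmest probe set; single probe sets were added after seeing the data), and, with probe sets averaged, for the old-cell shift of Col6a1 minus Col6a2 (-0.0688) and the age difference of Col4a1 minus Col4a2 in culture (-0.0375). In vivo correlations turned for Col6a2 with Col6a3 (-0.154 with probe sets averaged, -0.436 under cyclic loess) and Col6a1 with Col6a3 (-0.143, cyclic loess), while those of Col4a1 with Col4a2 (0.971) and Col6a1 with Col6a2 (0.912) in culture passed under cyclic loess; the cause was not tested.

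With 1 array left out, counts of genes called ranged from 11410 to 11880 for culture over both ages, from 44 to 200 for the interaction (moved from 87 by over 1.5 times without young or old in vivo replicate 1, young cultured replicate 1, 2 or 4, or old cultured replicate 2 or 4) and from 60 to 306 for age in vivo, where each of the 8 arrays moved the 200 by over 1.5 times. Members called ranged from 3 to 5 (higher with culture in young), 0 to 1 (interaction, higher) and 0 to 4 (lower with age in vivo). Signs turned within the ranges of the Col15a1 interaction (-0.17 to 0.22), Col8a1 with age in vivo (-0.18 to 0.00583), Col6a3 with age in culture (-0.0708 to 0.0425) and the age difference of Col4a1 minus Col4a2 in culture (-0.0525 to 0.0342). With 3 against 4 arrays, the exact permutation tests of Col4a1 minus Col4a2 with culture kept an adjusted p of 0.0429 at both ages. The same held for Col6a3 minus the mean of its partners. With age in vivo, Col4a1 minus Col4a2 had an adjusted exact permutation p of 0.171 in each of these fits. No paired analysis was possible because the labels do not tie samples of a mouse or day together and replicate numbers follow accession order.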
